A study of Mus musculus with 9 samples.

Results

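The 9 genes described here, Pla2g4a, Ptgs1, Ptgs2, Ptges, Ptgds, Hpgds, Alox5, Alox5ap and Ltc4s, encode enzymes, and 1 accessory protein, that make prostaglandins and leukotrienes. They were chosen as named members of this pathway, with earlier results of these data known, so their counts below are descriptions. Each was found as a single entry among the 37893 genes of the table. RNA of mouse cortex was sequenced from 9 libraries in 3 groups of 3 mice, as poly(A)-selected, dUTP-marked fragments with molecular identifiers in their adapters. The sham_WT mice were wild type and had sham surgery, and their sample was cerebral cortex. The IR_WT mice were wild type and the IR_Matn3_ko mice carried a knockout of Matn3, the gene of the matrix protein matrilin-3. Both of these groups had tMCAO, a transient occlusion of the middle cerebral artery, with 60 min of ischemia and 1 day of reperfusion, and their sample was the area around the infarct. Strain, age and sex were not given in the sources used here, nor which part of Matn3 was deleted or in which cells. No group joined the knockout with sham surgery, so every value of the knockout is one after ischemia, and the sham and ischemic groups differ in the piece of cortex taken as well as in treatment. The study asked how matrilin-3 acts on the glial scar and named the comparisons of IR_WT with the sham group and with IR_Matn3_ko.

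Prostaglandins and leukotrienes are lipid signals made from arachidonate, a fatty acid held in membrane phospholipids. Cytosolic phospholipase A2, the product of Pla2g4a, releases arachidonate. On the prostaglandin branch the cyclooxygenases, encoded by Ptgs1 and Ptgs2, convert it to prostaglandin H, which terminal synthases turn into prostaglandin E (Ptges) or prostaglandin D (Ptgds and Hpgds). On the leukotriene branch arachidonate 5-lipoxygenase (Alox5), helped by its activating protein (Alox5ap), makes leukotriene A, and leukotriene C synthase (Ltc4s) joins that product to glutathione. In brain, Ptgs2 is known as an inducible gene of neurons and blood vessels, Ptgs1, Hpgds and Alox5ap are known from microglia, and Ptgds is known from oligodendrocytes, the meninges and the choroid plexus. In bulk tissue fewer cells of a type and less RNA per cell cannot be told apart.

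Totals ran from 53400376 to 68370527 counts per library, so that 3 counts stood for 0.0439 to 0.0562 CPM (counts relative to the total of the library). The CPM of single genes below, other than cell type markers, are also scaled by TMM factors of 0.948 to 1.07. The libraries fell into sets that do not follow the groups. Summed transcripts of 15 genes of the small intestine were at 10.3 to 13.3 CPM in a first set, the sham group with IR_WT replicate 1. They were at 114 to 514 CPM in a second set, the knockout group with IR_WT replicates 2 and 3. Those sets also differed in B cell markers, from 203 to 302 CPM in the former and from 9.05 to 24.4 CPM in the latter. Keratinocyte markers were at 48.4 to 113 CPM in the former and 9.73 to 12.4 CPM in the latter. Cartilage markers were at 236 to 248 CPM in sham replicates 2 and 3 and IR_WT replicate 1, and at 12.4 to 16.2 CPM in the other 6 libraries. IR_Matn3_ko replicate 2 had the lowest sums of astrocyte markers (2420 CPM, others 3515 to 5676) and of excitatory neuron markers (6283 CPM, others 8389 to 11263). The sham group lies wholly in the first set and the knockout wholly in the second. Calls are therefore given below with and without a term for the set, and values that were not called only in part. With that term, IR_WT against sham rests on IR_WT replicate 1, and IR_Matn3_ko against IR_WT on IR_WT replicates 2 and 3. IR_Matn3_ko and sham share no set, so their comparison is then these others joined, with IR_WT replicate 1 as the only link to sham. Calls against sham that stand with the term carry this limit. Matn3 itself was at 0, 4 and 26 counts in sham, 33, 12 and 48 in IR_WT and 0, 17 and 0 in IR_Matn3_ko, too few to check the genotype labels. Defining markers of neurons, astrocytes, oligodendrocytes and microglia were present in every library.

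Levels of different genes were compared per length, in FPKM (fragments relative to gene length and to the total of the library). In sham cortex Ptgds stood far above the rest at 63.4 ± 7.29 FPKM (SD, n = 3, as for every ± on a level below). Ptgs1 followed at 3.03 ± 0.361 and Ptgs2 at 2.16 ± 0.146 FPKM, with no shared range. Below them came Hpgds at 1.66 ± 0.228, Alox5ap at 1.47 ± 0.205 and Ltc4s at 0.936 to 1.51 FPKM, neighbours whose libraries overlapped. Ptges at 0.842 ± 0.153 FPKM overlapped Ltc4s, and Pla2g4a at 0.442 ± 0.0264 and Alox5 at 0.0934 ± 0.0437 FPKM followed without overlap. After ischemia in wild type Ptgs2 took the second place, at 6.31 ± 0.377 FPKM against 4.37 ± 0.828 for Ptgs1, and Ltc4s at 1.01 ± 0.319 FPKM was below Ptges at 2.24 ± 0.629 FPKM and overlapped Pla2g4a at 1.39 ± 0.241 FPKM. Alox5ap at 2.59 ± 0.955 and Hpgds at 2.14 ± 0.285 FPKM overlapped Ptges in that group. In the knockout Ptgds remained the highest at 38.5 ± 17.8 FPKM, Ptgs2 came next at 9.45 ± 2.63 FPKM, and Alox5ap, at 3.90 ± 0.908 FPKM, overlapped Ptgs1 at 3.76 ± 0.433 FPKM. Hpgds at 2.43 ± 0.899, Ptges at 2.28 ± 0.904 and Pla2g4a at 2.19 ± 0.203 FPKM could not be set in order there. By its mean Alox5 was the lowest of the 9 in all 3 groups, at 0.538 ± 0.188 FPKM in IR_WT and 0.516 ± 0.111 FPKM in the knockout.

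**Figure D1:**
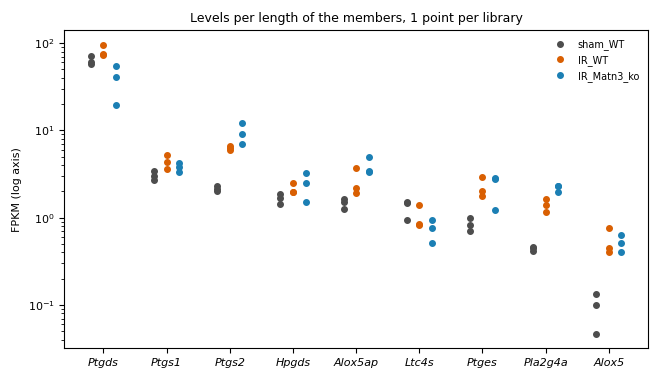
Level per length of the 9 genes in FPKM (log axis), 1 point per library, colored by group and ordered from left to right by the mean of the sham libraries. Ptgds is the highest gene in every library and Alox5 the lowest in every library except IR_Matn3_ko replicate 3, where Ltc4s was at 0.509 FPKM.

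All 9 genes were tested, because each reached 0.5 FPKM in at least 3 libraries, the filter that 17247 genes passed. Alox5 and Pla2g4a reached it only in ischemic libraries, so their passing already depended on being higher there; without the filter their adjusted p-values in IR_WT against sham were 0.022 and 0.002. In IR_WT against sham, 3 of the 9 genes were higher at an adjusted p under 0.05 (Ptgs2, Pla2g4a and Alox5) and 0 were lower, where the background over all genes tested was 2.54% higher and 1.52% lower. The adjusted p-values are from the quasi-likelihood test of edgeR with the Benjamini-Hochberg method over all genes. In 5 of the 9 genes all IR_WT libraries lay above all sham libraries, and in 0 below, against 13.1% and 12.5% of all genes. The median log2 fold change of the 9 genes was 0.73, beside 0.00 over all genes tested. In IR_Matn3_ko against sham 5 were higher (these 3 with Ptges and Alox5ap) and 0 lower, where 11.8% and 10.7% of all genes were called. The libraries did not overlap in 5 higher and 2 lower members in that comparison, against 21.6% and 20.9% of all genes. In IR_Matn3_ko against IR_WT no gene passed, neither of the 9 nor of all genes tested (0% in either direction). Its libraries did not overlap in 2 higher members (Pla2g4a and Ptgs2) and 1 lower (Ptgds), against 9.37% and 8.47% of all genes. At an unadjusted p under 0.05 the numbers in that comparison were 3 of 9 and 2302 of 17247, and DESeq2 called 2 of the 9 and 668 of all. Both comparisons with sham share the sham libraries, so their values are given side by side and are not independent.

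**Figure D2:**
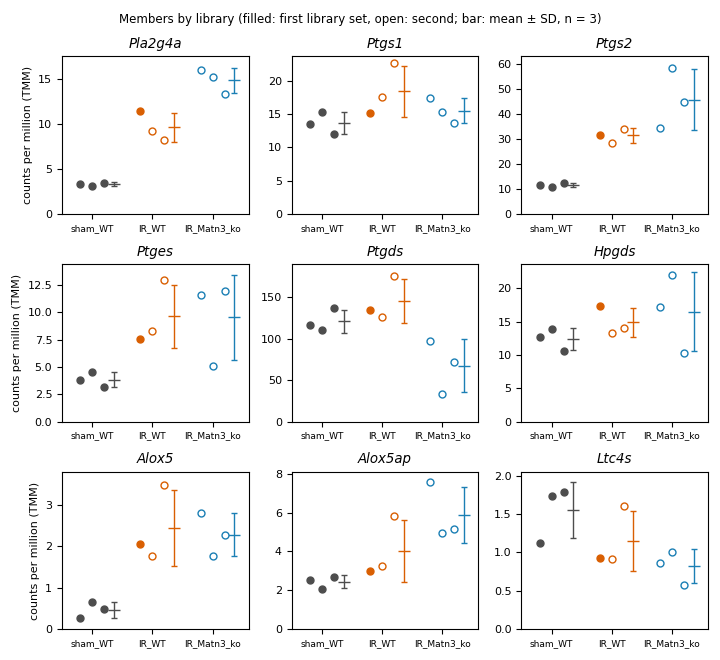
CPM (TMM-scaled) of each of the 9 genes by group, 1 point per library with replicates 1 to 3 from left to right; filled points belong to the first library set and open points to the second, and the bar beside them is the mean ± SD (n = 3). Pla2g4a and Ptgs2 are lowest in sham and highest in IR_Matn3_ko with no overlap of the 3 groups, while Ptgds is low in the 3 IR_Matn3_ko libraries, lowest at 33.7 CPM in replicate 2.

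Pla2g4a, the gene of the enzyme that releases arachidonate, was higher in both ischemic groups than in sham. It lies on chromosome 1 (GRCm38, minus strand, 149829618 to 149961290). It was at 3.36, 3.08 and 3.48 CPM in sham, 11.4, 9.28 and 8.22 CPM in IR_WT and 16.0, 15.3 and 13.4 CPM in IR_Matn3_ko. The 3 groups did not overlap, and within each the libraries lay close together. It rose 2.92-fold in IR_WT against sham (log2 fold change 1.55, SE 0.16, edgeR adjusted p = 0.00092) and 4.50-fold in IR_Matn3_ko against sham (2.17, SE 0.16, adjusted p = 5.2e-05). With the library set term it was 1.79 (adjusted p = 0.0011) and 2.56 (adjusted p = 0.00057) on the log2 scale. Between the ischemic groups its log2 difference was 0.62 (SE 0.16, unadjusted p = 0.0026), all 3 knockout libraries lay above all wild-type ones, and it missed the threshold in edgeR (adjusted p = 0.149) while passing it in DESeq2 (adjusted p = 0.0099). With the library set term this difference was 0.77 and also missed the threshold in edgeR.

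Ptgs2, the inducible cyclooxygenase, was likewise higher in both ischemic groups than in sham. The gene (chromosome 1, plus strand, 150100031 to 150108227) was at 11.4, 10.7 and 12.3 CPM in sham, 31.7, 28.4 and 34.0 CPM in IR_WT and 34.2, 58.2 and 44.7 CPM in IR_Matn3_ko. Every ischemic library was above every sham library, and IR_Matn3_ko replicate 2 was the highest of all. Ptgs2 rose 2.73-fold in IR_WT against sham (log2 fold change 1.45, SE 0.17, edgeR adjusted p = 0.0020) and 3.99-fold in IR_Matn3_ko against sham (2.00, SE 0.18, adjusted p = 0.00011). Both calls stood with the library set term, at 1.47 (adjusted p = 0.012) and 2.02 (adjusted p = 0.0059). Its log2 difference of IR_Matn3_ko over IR_WT was 0.54 (SE 0.17), with no overlap, and missed the threshold (edgeR adjusted p = 0.220). Without IR_Matn3_ko replicate 2, the library with the lowest astrocyte and neuron marker sums, that difference was 0.33. With the library set term the difference was 0.55, which did not pass.

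Pla2g4a and Ptgs2 are next to each other among the protein-coding genes of the table, 138.74 kb apart and pointing away from each other. Between them lie Ptgs2os, a gene on the strand opposite to Ptgs2 with at most 106 counts in a library and an annotated start inside the Ptgs2 window printed here, and 1 small RNA gene with at most 2 counts. Over the 9 libraries the log2 CPM of the pair had a Pearson r of 0.96, a description in which group and library set are shared by the points. The 250 bases before their annotated starts, and those of the other cyclooxygenase gene Ptgs1 for contrast, are shown because this pair moved together while Ptgs1 did not pass the test. They are from RefSeq (GRCm38.p6), 5′ to 3′ on the strand of the gene, at chr1:150099781-150100030 (plus) for Ptgs2, chr1:149961291-149961540 (minus) for Pla2g4a and chr2:36230176-36230425 (plus) for Ptgs1. Capitals mark matches to the motifs searched.
Ptgs2: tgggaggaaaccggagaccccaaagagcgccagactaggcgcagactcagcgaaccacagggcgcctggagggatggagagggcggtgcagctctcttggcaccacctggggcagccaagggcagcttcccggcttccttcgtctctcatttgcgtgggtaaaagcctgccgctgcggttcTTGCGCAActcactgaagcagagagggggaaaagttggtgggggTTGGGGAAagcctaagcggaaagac
Pla2g4a: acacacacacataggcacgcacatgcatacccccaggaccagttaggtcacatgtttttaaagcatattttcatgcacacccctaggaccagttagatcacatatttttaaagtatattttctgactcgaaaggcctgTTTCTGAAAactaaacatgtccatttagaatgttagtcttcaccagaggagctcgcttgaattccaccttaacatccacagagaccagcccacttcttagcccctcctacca
Ptgs1: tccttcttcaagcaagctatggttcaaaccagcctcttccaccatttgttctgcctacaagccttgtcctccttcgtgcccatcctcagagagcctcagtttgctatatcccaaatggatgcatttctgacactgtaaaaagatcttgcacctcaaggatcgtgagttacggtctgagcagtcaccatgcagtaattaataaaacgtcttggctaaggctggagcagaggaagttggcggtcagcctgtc
Windows of 300 bases, from 250 before to 50 after the start, were searched on both strands. The motifs were a core promoter box spelled TATAAA, an E-box spelled CACGTG and a cyclic AMP element spelled TGACGTCA, the last also by its shorter form CGTCA. The AP-1 motif was spelled TGANTCA, a C/EBP pattern was spelled TTNNGNAA, and the NF-kB motif was searched too. The pattern TTNNGNAA was in Ptgs2 at -69 to -62, where TTGCGCAA reads the same on both strands, and at -25 to -18. In Pla2g4a overlapping matches on opposite strands spanned -112 to -104. After its start Ptgs2 also held CGTCACGTG at +14 to +22, in which CGTCA and CACGTG overlap. No searched motif was in the windows of Ptgs1, Alox5 and Ltc4s. The motifs did not divide called from uncalled genes: TTNNGNAA was in 5 of the 8 members with an entry, which besides this pair were Ptges, Ptgds and Hpgds. TTNNGNAA is common: 40.7% of the 32544 promoter windows held it, 7.17% held CACGTG and 20.9% held CGTCA.

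Ptgs1, the constitutive cyclooxygenase (chromosome 2, plus strand, 36230426 to 36252272), was at 13.6, 15.3 and 12.1 CPM in sham, 15.2, 17.5 and 22.7 CPM in IR_WT and 17.5, 15.3 and 13.7 CPM in IR_Matn3_ko. The groups overlapped, and the highest library was IR_WT replicate 3. Its log2 fold change was 0.44 (SE 0.17, edgeR adjusted p = 0.190) in IR_WT against sham and 0.18 (SE 0.17, adjusted p = 0.467) in IR_Matn3_ko against sham, a value that was -0.22 with the library set term. Reads of the antisense gene Gm43621 (at most 66 counts) share 148 exonic bases with Ptgs1, and whether the counting used the strand was not given in the sources used here.

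Within a library, the ratio of Ptgs2 to Ptgs1 in FPKM was 0.715, 0.596 and 0.864 in sham, 1.77, 1.37 and 1.28 in IR_WT and 1.66, 3.23 and 2.76 in the knockout. The inducible enzyme's transcript was thus below that of the constitutive one in each sham library and above it in each ischemic library. An exact two-sided permutation test gave p = 0.1 for each ischemic group against sham, the smallest p that 3 against 3 libraries allow, and p = 0.2 between the ischemic groups. Adjusted over the 9 such tests made on 3 ratios, these were 0.113 and 0.2.

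The terminal synthases differed among themselves. Ptges, microsomal prostaglandin E synthase (chromosome 2, minus strand, 30889471 to 30903297), was at 3.77, 4.57 and 3.20 CPM in sham, 7.59, 8.33 and 12.96 CPM in IR_WT and 11.6, 5.07 and 11.9 CPM in IR_Matn3_ko. All ischemic libraries were above all sham libraries, the nearest being IR_Matn3_ko replicate 2. Ptges rose 2.48-fold in IR_Matn3_ko against sham (log2 fold change 1.31, SE 0.34, edgeR adjusted p = 0.021), and its value of 1.32 (SE 0.34) in IR_WT missed the threshold (adjusted p = 0.061). The call in the knockout was lost without sham replicate 1 or 3 or IR_Matn3_ko replicate 1 or 3 (adjusted p = 0.062 to 0.074) and when the library set was modelled (0.82, adjusted p = 0.431). In IR_WT it passed in DESeq2 (adjusted p = 0.0014), without scaling factors (adjusted p = 0.044), in a fit of those 2 groups only (adjusted p = 0.035), and without IR_WT replicate 1 (adjusted p = 0.040) or IR_Matn3_ko replicate 2 (adjusted p = 0.015). Over all alternatives it ran from 0.0014 to 0.301. Between the ischemic groups it was at -0.01 (SE 0.33, adjusted p = 0.991).

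Ptgds, the lipocalin-type prostaglandin D synthase (chromosome 2, minus strand, 25466709 to 25470046), was at 117, 110 and 137 CPM in sham, 134, 126 and 176 CPM in IR_WT and 97.2, 33.7 and 71.6 CPM in IR_Matn3_ko. The knockout libraries were below all others, and the wild-type groups overlapped. Its log2 difference of IR_Matn3_ko over IR_WT was -1.10 (SE 0.31, unadjusted p = 0.0050), which missed the threshold in edgeR (adjusted p = 0.181) and passed it in DESeq2 (adjusted p = 0.045). Leaving out IR_Matn3_ko replicate 2, the lowest library and the one with the lowest astrocyte and neuron marker sums, gave -0.78. Against sham the knockout was at -0.84 (SE 0.31, adjusted p = 0.075), and IR_WT at 0.26 (SE 0.30, adjusted p = 0.690). The first of these passed without IR_Matn3_ko replicate 1 (-1.20, adjusted p = 0.023). When the library set was modelled the knockout was at -1.16 over IR_WT and -1.01 over sham, and neither passed.

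Markers of the cell types known for Ptgds were read beside it, relative to the library total only. Of all genes, 9.37% were higher and 8.47% lower without overlap in IR_Matn3_ko against IR_WT, on TMM-scaled CPM. The shares were 21.6% and 20.9% in IR_Matn3_ko against sham and 13.1% and 12.5% in IR_WT against sham. Summed oligodendrocyte markers (10 genes) were at 3492 to 5418 CPM in sham, 2405 to 3029 in IR_WT and 2323 to 2584 in IR_Matn3_ko, with 3 markers lower and 1 higher without overlap in the knockout than in IR_WT. Leptomeningeal fibroblast markers (12 genes) were at 36.9 to 144, 56.3 to 144 and 78.0 to 91.0 CPM, and choroid plexus markers (9 genes) at 2.32 to 11.7, 5.37 to 8.97 and 6.20 to 9.94 CPM, so that the 3 groups overlapped in both lists. The leptomeningeal sums of 141 to 144 CPM were those of sham replicates 2 and 3 and IR_WT replicate 1, the libraries with cartilage transcripts, and the other 6 were at 36.9 to 91.0 CPM. Within that list the markers went both ways. Without overlap, 3 were higher and 4 lower in IR_Matn3_ko than in sham, and 1 higher and 1 lower than in IR_WT. In IR_WT against sham 2 were higher and 0 lower. Dcn, among the higher ones each time, was at 5.62 to 10.9 CPM in sham, 14.3 to 21.6 in IR_WT and 32.4 to 45.8 in IR_Matn3_ko. None of the 12 leptomeningeal markers was at 0 in all libraries of a comparison. The part of these cells in the level of Ptgds was not tested.

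Hpgds, the hematopoietic prostaglandin D synthase (chromosome 6, minus strand, 65117293 to 65144908), was at 12.7, 13.9 and 10.6 CPM in sham, 17.3, 13.4 and 14.0 CPM in IR_WT and 17.3, 22.0 and 10.2 CPM in IR_Matn3_ko. The knockout libraries spanned the range of all 9. No comparison passed, with log2 fold changes of 0.26 (edgeR adjusted p = 0.608) and 0.41 (adjusted p = 0.262) for IR_WT and IR_Matn3_ko over sham, and 0.15 (adjusted p = 0.848) between the ischemic groups. Leaving out IR_Matn3_ko replicate 3, the lowest library, brought the knockout over sham to 0.66 (adjusted p = 0.041). With the library set term IR_WT and IR_Matn3_ko were at 0.48 and 0.75 over sham. The value between the ischemic groups was then 0.27, and none of these passed.

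Set against each other per length, Ptges was 0.013, 0.017 and 0.010 of Ptgds in sham, 0.024, 0.028 and 0.031 in IR_WT and 0.050, 0.063 and 0.070 in IR_Matn3_ko. This ratio of an E synthase to a D synthase transcript did not overlap between any 2 groups, and each of the 3 exact two-sided permutation tests gave p = 0.1, the smallest possible. Between IR_WT and IR_Matn3_ko the mean of Ptges was 2.24 and 2.28 FPKM and that of Ptgds 80.9 and 38.5 FPKM.

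**Figure D3:**
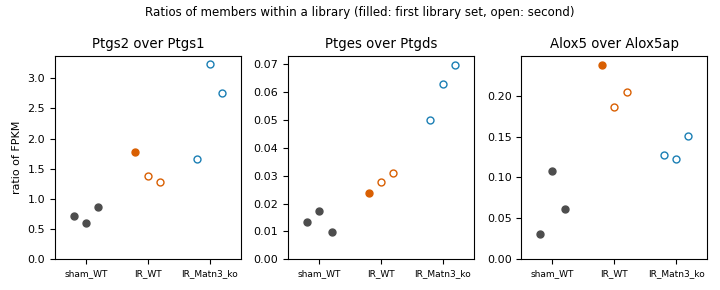
Ratio of FPKM values within a library for Ptgs2 over Ptgs1, Ptges over Ptgds and Alox5 over Alox5ap, by group with replicates 1 to 3 from left to right; filled points belong to the first library set and open points to the second. The first ratio is below 1 in the 3 sham libraries and above 1 in the 6 ischemic ones, and the second is highest in IR_Matn3_ko, at 0.050 to 0.070.

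On the leukotriene branch Alox5 was higher in both ischemic groups than in sham, calls that were lost when the library set was modelled. Alox5ap passed the test in the knockout against sham, and Ltc4s in no comparison. Alox5 (chromosome 6, minus strand, 116410077 to 116461178) was at 0.276, 0.664 and 0.489 CPM in sham, 2.06, 1.78 and 3.49 CPM in IR_WT and 2.82, 1.77 and 2.27 CPM in IR_Matn3_ko. All ischemic libraries lay above all sham libraries, and the ischemic groups overlapped. It rose 5.09-fold in IR_WT (log2 fold change 2.35, SE 0.39, edgeR adjusted p = 0.011) and 4.77-fold in IR_Matn3_ko (2.25, SE 0.39, adjusted p = 0.0036). With the set modelled it was at 4.29-fold (adjusted p = 0.062) and 3.73-fold (adjusted p = 0.118). The difference between the ischemic groups was -0.10 (SE 0.36, adjusted p = 0.941).

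Alox5ap, the activating protein of the 5-lipoxygenase (chromosome 5, plus strand, 149264767 to 149288153), was at 2.53, 2.07 and 2.71 CPM in sham, 2.98, 3.26 and 5.85 CPM in IR_WT and 7.55, 4.95 and 5.17 CPM in IR_Matn3_ko. No ischemic library fell to the sham range, and IR_WT replicate 3 lay among the knockout libraries. It rose 2.42-fold in IR_Matn3_ko against sham (log2 fold change 1.27, SE 0.30, edgeR adjusted p = 0.014) and was at 0.73 (SE 0.29, adjusted p = 0.211) in IR_WT. The call was lost without sham replicate 2 (adjusted p = 0.057) and when the library set was modelled (0.67, adjusted p = 0.456), and IR_WT was at 0.36 without IR_WT replicate 3. IR_Matn3_ko over IR_WT was at 0.55 (SE 0.29, adjusted p = 0.454). The antisense gene Gm19719 (at most 136 counts) shares 189 exonic bases with Alox5ap.

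Ltc4s (chromosome 11, minus strand, 50236461 to 50238616) was at 1.13, 1.73 and 1.79 CPM in sham, 0.925, 0.911 and 1.60 CPM in IR_WT and 0.864, 1.01 and 0.578 CPM in IR_Matn3_ko. The knockout libraries were below those of sham, while IR_WT overlapped both. No comparison passed: the log2 fold changes were -0.44 (edgeR adjusted p = 0.528) and -0.92 (adjusted p = 0.079) for IR_WT and IR_Matn3_ko over sham. With the library set term these values were -0.74 and -1.35, and neither passed. Here 268 exonic bases are shared with the antisense gene Gm26542 (at most 43 counts), a possible share of the reads that could not be told apart without the strand.

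Alox5 stood at 0.031, 0.107 and 0.061 of Alox5ap in sham, at 0.238, 0.186 and 0.205 in IR_WT and at 0.127, 0.122 and 0.150 in IR_Matn3_ko, per length. This ratio was highest in wild-type ischemic cortex and intermediate in the knockout, with no overlap between groups and p = 0.1 in each of the 3 exact two-sided permutation tests.

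**Figure D4:**
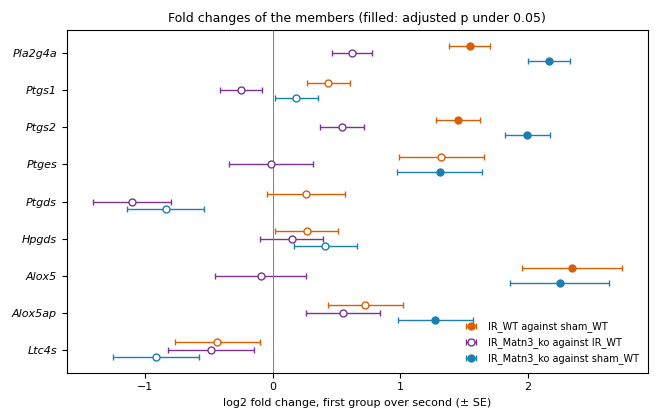
Log2 fold change of each gene (points, ± SE) in IR_WT against sham_WT, IR_Matn3_ko against IR_WT and IR_Matn3_ko against sham_WT, with filled points at an adjusted p under 0.05. Alox5, Pla2g4a and Ptgs2 are filled in both comparisons with sham, Ptges and Alox5ap in that of the knockout, and no point of IR_Matn3_ko against IR_WT is filled.

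Markers of cells known to use these enzymes were summed per library, with no test. Beside their counts without overlap stand 13.1% higher and 12.5% lower of all genes in IR_WT against sham. These shares were 21.6% and 20.9% in IR_Matn3_ko against sham and 9.37% and 8.47% in IR_Matn3_ko against IR_WT. The shares are on TMM-scaled CPM, and the markers are relative to the library total only. Microglial markers (10 genes) summed to 371 to 382 CPM in sham, 492 to 573 in IR_WT and 459 to 666 in IR_Matn3_ko, with 4 higher and 2 lower without overlap in IR_WT against sham. Markers of monocytes and infiltrating macrophages (8 genes) were at 10.8 to 13.4, 16.0 to 21.5 and 28.6 to 42.1 CPM, with 4 of 8 higher without overlap in the knockout than in IR_WT. Against sham, 2 were higher and 0 lower in IR_WT, and 5 higher and 1 lower in IR_Matn3_ko. In IR_WT replicates 2 and 3 Plac8 was at 16.4 and 9.03 CPM (sham 6.65 to 8.35) and Ccr2 at 0.293 and 1.08 CPM (sham 0.581 to 1.41). Ms4a8a followed the library sets, at 0.143 CPM at most in the first and 1.11 to 2.74 CPM in the second. Border-associated macrophage markers (8 genes) were at 6.15 to 7.10, 9.24 to 12.8 and 15.1 to 16.9 CPM. Neutrophil markers (12 genes) were at 2.72 to 4.79, 1.88 to 5.35 and 2.24 to 10.7 CPM. Against sham, 3 were higher and 0 lower without overlap in IR_WT, and 3 higher and 2 lower in IR_Matn3_ko. Among them Ly6g and Elane were at 0 in 8 of the 9 libraries each, and Cxcr2 was highest in IR_Matn3_ko, at 0.722 to 2.81 CPM. Mast cell markers (6 genes) summed to 2.46 CPM at most. Tuft cells of the intestine, which are known to express several of the 9 genes, had markers at 2.53 to 2.98 CPM in sham, 4.32 to 4.59 in IR_WT and 5.08 to 6.39 in IR_Matn3_ko. Of these 7 markers 2 were higher and 0 lower without overlap in IR_WT against sham, and 3 higher and 0 lower in IR_Matn3_ko against sham. Avil was at 0.300 to 0.457 CPM in sham, 0.756 to 1.63 in IR_WT and 1.44 to 3.28 in IR_Matn3_ko. Trpm5 was at 0.355 CPM at most and Il25 at 0.229 CPM at most, too low to follow such cells by either gene. Astrocyte markers (10 genes) were at 4918 to 5676 CPM in sham, 4017 to 5124 in IR_WT and 2420 to 3608 in IR_Matn3_ko, with 5 of 10 lower without overlap in the knockout than in IR_WT. Excitatory neuron markers (10 genes) were at 10768 to 11263, 8653 to 10881 and 6283 to 9151 CPM, and endothelial markers (10 genes) at 257 to 294, 276 to 363 and 302 to 387 CPM. The part of any of these cells in the levels of the 9 genes was not tested.

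The genes nearest to each member in pattern were taken by Pearson r of log2 CPM over the 9 libraries, in which group and library set are shared. Nearest to Pla2g4a were Atf3 (r = 0.994), Spp1 (0.994) and Pgam2 (0.994), and nearest to Ptgs2 were Smagp (0.987), Pros1 (0.987) and Eif2b2 (0.985). For Alox5 they were Mthfsl (0.976), Gfap (0.974) and Plce1 (0.969), and for Alox5ap Dhrs1 (0.982), S100a16 (0.978) and Gpsm1 (0.977). Ptges had Ehd3 (0.978) and Amigo2 (0.970) and Ptgds had Fam3c (0.978) and Kcnab2 (0.975). Ptgs1 and Hpgds had no neighbour as close, the first being Rhou (0.910) and Acy3 (0.916), and Ltc4s had Penk (0.960). Among the 9 genes themselves, Ptgds had r of -0.52 with Ptgs2 and -0.46 with Pla2g4a.

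The other genes of the pathway, 69 in 6 lists, were counted beside the 9. Of these, 67 were in the table and 38 were tested. In IR_WT against sham 1 was higher and 1 lower, with a median log2 fold change of 0.12. In IR_Matn3_ko against sham 7 were higher and 3 lower, with a median of 0.02, and in IR_Matn3_ko against IR_WT 0 passed in either direction, with a median of -0.07. Of all genes tested, 2.54% were called higher and 1.52% lower in IR_WT against sham, and 11.8% and 10.7% in IR_Matn3_ko against sham. Between the ischemic groups the share was 0% in either direction. Of the 38, 5 reached the filter in ischemic libraries alone, so their passing depended on being higher there. These include 4 of the 7 higher calls in the knockout (Tbxas1, Dpep1, Ptger4 and Ptgr1), and the counts are a description only. Without the filter 9 of the 10 calls in the knockout and 0 of the 2 in IR_WT were made. When the library set was modelled, 3 of these 10 calls in the knockout stood (Pla2g7, Aloxe3 and Ptger4), and neither of those in IR_WT did.

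Among 11 tested genes of the list of phospholipases and arachidonate-releasing enzymes, not all of which release it, 0 rose in any comparison. Pla2g7, listed as a phospholipase and known to inactivate platelet-activating factor, fell in both comparisons with sham. It was at 135, 121 and 125 CPM in sham, 80.4, 93.5 and 90.3 CPM in IR_WT and 74.4, 61.3 and 83.4 CPM in IR_Matn3_ko. The log2 fold changes were -0.53 (edgeR adjusted p = 0.035) and -0.80, the first of which missed the threshold in 7 of 9 fits with 1 library left out (adjusted p up to 0.137) and without the filter (adjusted p = 0.072). With the library set term they were -0.66 and -0.99, and only the second passed. Mgll, monoacylglycerol lipase, a known source of arachidonate in mouse brain, fell to 157 ± 19.0 CPM in IR_Matn3_ko from 217 ± 7.46 CPM in sham. With the library set term its log2 fold change was -0.56 and missed the threshold. Over this list 4 of 11 log2 fold changes were above 0 in IR_WT against sham and 3 of 11 in IR_Matn3_ko against sham. The median over all genes tested was 0.00 in either comparison.

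Of 8 tested prostanoid synthases besides the 9 genes, 2 rose in IR_Matn3_ko against sham and 0 in IR_WT. The shares of all genes called higher there were 11.8% and 2.54%. Tbxas1, thromboxane A synthase, was at 3.32, 2.12 and 2.09 CPM in sham, 4.47, 4.09 and 4.42 CPM in IR_WT and 7.57, 6.66 and 5.61 CPM in IR_Matn3_ko, with no overlap of the 3 groups. It reached the filter in the 3 knockout libraries alone. Its log2 fold change there over sham was 1.40 (edgeR adjusted p = 0.0026, and 0.0049 without the filter), which missed the threshold with the library set term (adjusted p = 0.064). Ptges3, the cytosolic prostaglandin E synthase and a known cochaperone, was at 57.4 ± 4.28 CPM in sham and 77.4 ± 15.6 CPM in IR_Matn3_ko, and its call was lost in 6 of 9 fits with 1 library left out and without the filter (adjusted p = 0.099). The call was also lost with the library set term, at a log2 fold change of 0.25.

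Of 7 tested lipoxygenases and leukotriene enzymes, Aloxe3, an epidermal-type lipoxygenase, and Dpep1, a dipeptidase that converts leukotriene D to leukotriene E, rose in IR_Matn3_ko against sham. The share of all genes called higher in that comparison was 11.8%. Aloxe3 was at 4.88 ± 0.439 CPM in sham, 7.51 ± 0.803 in IR_WT and 11.1 ± 2.37 in IR_Matn3_ko. Dpep1 was at 0, 4 and 0 counts in sham, 0, 148 and 153 counts in IR_WT and 191, 173 and 48 counts in IR_Matn3_ko. It therefore followed the library sets, with at most 4 counts in the first set and at least 48 in the second, and its level cannot be told apart from that division (adjusted p = 0.568 with the library set term).

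Few receptors were measured above the filter. Of them 3 of 9 prostanoid receptors and 0 of 6 leukotriene and lipoxin receptors reached it. Ptger4, a receptor of prostaglandin E that raises cyclic AMP, was at 2.31, 2.16 and 2.26 CPM in sham, 4.88, 3.45 and 3.18 CPM in IR_WT and 3.39, 3.79 and 4.71 CPM in IR_Matn3_ko. Every ischemic library was above every sham library. It rose in the knockout against sham (log2 fold change 0.82, edgeR adjusted p = 0.028). It had reached the filter in ischemic libraries alone, and its adjusted p was 0.0499 without the filter. This was a call lost in 5 of 9 fits with 1 library left out (adjusted p up to 0.095).

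Among 9 tested genes of transport and inactivation, Ptgr1, prostaglandin reductase 1, which also inactivates leukotriene B, rose in both comparisons with sham. It was at 0.612, 0.295 and 1.05 CPM in sham, 1.51, 3.29 and 2.25 CPM in IR_WT and 2.82, 2.12 and 2.63 CPM in IR_Matn3_ko. Its log2 fold change was 1.85 in IR_WT (edgeR adjusted p = 0.049), a call lost in 7 of 9 fits with 1 library left out, when the library set was modelled (1.21, adjusted p = 0.301) and without the filter (adjusted p = 0.097), which it had reached in ischemic libraries alone. In the knockout the value without the filter was 1.94 (adjusted p = 0.027). The call in the knockout was lost in 1 of 9 fits with 1 library left out and when the library set was modelled (1.07). Hpgd, which oxidizes prostaglandins to inactive forms, rose in IR_Matn3_ko, from 5.85 ± 0.169 to 8.59 ± 0.510 CPM, a call lost in 3 of 9 fits with 1 library left out. With the library set term its log2 fold change was 0.69 and missed the threshold. Zadh2, also a prostaglandin reductase, fell there, from 33.2 ± 2.92 to 23.1 ± 3.04 CPM. This call too was lost with the library set term, at a log2 fold change of -0.56.

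**Figure D5:**
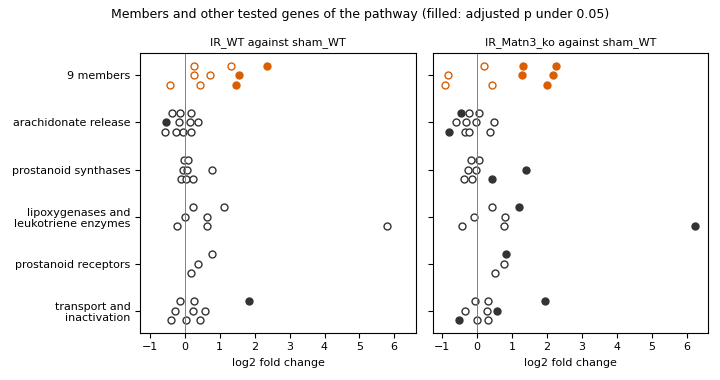
Log2 fold change of the 9 genes (orange, top line) and of the other tested genes of 5 pathway lists (black), in IR_WT against sham_WT on the left and IR_Matn3_ko against sham_WT on the right, with filled points at an adjusted p under 0.05; the vertical offsets have no meaning. Filled points right of 0 number 3 and 5 among the 9 genes and 1 and 7 among the 38 others, of which the rightmost is Dpep1.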

How the data were processed

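The raw counts and FPKM values of 37893 mouse genes in 9 libraries were deposited by the authors, the former unscaled whole numbers and the latter relative to gene length and library total, per the file headers. Per the submitters' processing notes, StringTie 1.3.4d, HISAT2 2.0.4, cutadapt 1.9, UMI-tools, edgeR and DESeq2 are named, their roles unstated, with a human build (GRCh38). The table's Ensembl identifiers are murine: 37764 match GENCODE M21 (GRCm38), 88.7% of these with equal start and end, and GRCm38 was taken as the build of the printed positions. The sources used here do not say whether reads or molecules were counted, or whether by strand.

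Groups came from the sample titles. The 17247 genes that reached 0.5 FPKM in 3 or more libraries were fitted together over all 9 libraries with TMM scaling and edgeR's quasi-likelihood test (edgeR 4.0.16, R 4.3.3), with a threshold of 0.05 on p-values adjusted by Benjamini-Hochberg. On simulated data this recovered 61 of 100 2-fold changes and 84 to 91 of 100 4-fold changes, with 8 to 11 false calls per comparison. The simulated libraries held no library sets, so calls under that division were not tested. Ratios within a library were compared by exact permutation. The floor of 3 counts, 0.0439 to 0.0562 CPM, is a setting and does not give the precision of single values. Libraries are labelled as separate mice, and no 2 libraries of a group agreed within sampling noise. Alternatives were DESeq2 1.42.0, limma 3.58.1 on log2(FPKM + 1) and log2(FPKM + 0.1), other scalings and filters, 2 groups only, a replicate block, each library left out and, added after the data were seen, a library set term divided at 50 CPM of small intestine transcripts. Named pathway genes were those called, at most 4 per list by size of change, or otherwise the highest by FPKM, and nearest patterns were the 3 tested genes with the highest r. For 8 of the 9 genes RefSeq promoters were matched by symbol. The 9 genes, the pathway and marker lists and the tests were chosen with earlier results of these data known.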

Additional observations from a re-analysis of the deposited data

How the results depend on the processing

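Over the 9 genes and 3 comparisons, 486 of 513 recomputed values kept their direction and their side of the threshold, 10 passed it newly, 10 no longer did and 7 changed direction. Among the members DESeq2 called 2 in IR_Matn3_ko against IR_WT (Pla2g4a and Ptgds) where edgeR called 0, and the library set term left 2 called in IR_Matn3_ko against sham (Ptgs2 and Pla2g4a) in place of 5. The cause was not tested. Leaving out 1 library gave 3 to 4 called members in IR_WT against sham, 0 in each fit of IR_Matn3_ko against IR_WT and 4 to 5 in IR_Matn3_ko against sham. Direction changed in values near 0. For IR_Matn3_ko over IR_WT, Ptges was at 0.05 without scaling factors and ran from -0.21 to 0.29 with 1 library left out, Hpgds from -0.12 to 0.40 and Alox5 from -0.28 to 0.25. Ptgs1 in IR_Matn3_ko over sham was at -0.22 with the library set term. Alox5 in IR_WT against sham also missed with limma on log2(FPKM + 1), at 0.49 (adjusted p = 0.055), a scale that understates low genes.

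Over all genes, edgeR called 701 in IR_WT against sham (438 higher, 263 lower, and 591 and 155 without scaling factors), DESeq2 1664, the fit with no filter 418, the library set term 407, and fits with 1 library left out 242 (without sham replicate 1) to 996 (without IR_WT replicate 1). In IR_Matn3_ko against IR_WT the calls were 0, against 668 by DESeq2, 34 with the library set term, 38 and 15 by limma with 1 and 0.1 added, and up to 61 without IR_Matn3_ko replicate 2. In IR_Matn3_ko against sham there were 3887 (2037 higher, 1850 lower, and 3508 and 1158 without scaling factors), against 1071 with the library set term and 2139 without sham replicate 1. The planned division at 10 CPM of small intestine transcripts could not be run, since all 9 libraries exceeded it. Replicate numbers did not pair the libraries, whose same-number correlations ran from -0.15 to 0.12. With the replicate block 3, 0 and 6 members were called in the 3 comparisons, Ptgds in IR_Matn3_ko against sham being added (-0.93, adjusted p = 0.045), and 410 of all genes in IR_WT against sham. Alox5 and Ltc4s, at under 4 CPM in every library, carry the most counting error of the 9.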
